A study of Mus musculus with 6 samples.

Results

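The genes described here encode nuclear subunits of the mitochondrial respiratory chain and ATP synthase. They are the 83 genes, of 17909 in the deposited mouse table, whose symbols start with Nduf, a subunit letter (a, b, c, s or v) and a digit, with Uqcr, with Cox4 to Cox8 or with Atp5, or are Sdha to Sdhd or Cyc1. By complex they are 35 genes of complex I, 4 of complex II, 9 of complex III, 18 of complex IV and 17 of complex V, the ATP synthase. Ndufa4 and its relative Ndufa4l2 were counted with complex IV, where the NDUFA4 protein resides. Atp5s and Atp5sl match by name only and are not structural subunits of the synthase. The table held none of the genes of mitochondrial DNA, so the mitochondrially made subunits of complexes I, III, IV and V were not analysed here.

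Electrons from NADH enter the chain at complex I and those from succinate at complex II. Complex III passes them to cytochrome c, complex IV reduces oxygen, and the synthase uses the resulting proton gradient to make ATP. Most subunits are made in the cytosol from nuclear genes and imported, and several complex IV subunits and the synthase c-ring are encoded by more than 1 gene, with heart and muscle forms kept low in most other tissues. Blood cells range from mitochondria-rich erythroid precursors to neutrophils, which depend largely on glycolysis.

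All cells came from C57BL/6xFVB mouse embryos carrying the Csf1r-iCre fate-mapping system, in which a Cre recombinase driven by the Csf1r promoter marks descendants of early erythro-myeloid progenitors (EMPs). At E11.5 the fetal liver gave EMPs, sorted macrophages (MAC) and mast cell progenitors (MCPs), and the limb gave MCPs. Limb MCPs were also taken at E14.5, and cells from the skin at E16.5, titled MCPs and described as mast cells. Each of the 6 groups is 1 library, so no test was possible, and each difference is between those libraries. The induction schedule of the Cre and the number of embryos per library were not given in the sources used here.

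Depth, estimated from the steps between low FPKM values (fragments per kilobase of transcript, relative to library size, from RSEM), was 12400000 fragments for EMPs, 11400000 for MAC, 12200000 for liver MCPs, 8750000 and 11350000 for limb MCPs at E11.5 and E14.5, and 9100000 for skin. At that depth 1 fragment on a 700-base transcript is worth 0.120 to 0.171 FPKM. The skin library stood apart, with 5675 genes at 1 FPKM or more against 8270 to 8754 elsewhere, and Cpa3, a mast cell protease gene, made 16.1% of its FPKM sum. Values are therefore also given after median-of-ratios scaling over 8774 genes, with size factors of 1.05 to 1.30 for the others and 0.442 for skin. Mast cell markers summed to 129 FPKM in EMPs, 66.2 in MAC, 374 in liver MCPs, 783 and 3581 in limb MCPs at E11.5 and E14.5, and 15608 in skin. Cpa3 alone made 13494 FPKM of the skin sum. As deposited, Kit had 239 FPKM in skin and 284 in limb MCPs at E14.5, and Gata2 0 in skin and 142 in limb MCPs. Hdc, Ms4a2, Fcer1a, Mcpt4 and Tpsb2 were higher in skin. The library labelled MAC held 63.9 FPKM over 5 macrophage markers but 7465 FPKM over 3 eosinophil markers and 5400 over neutrophil markers, against 9376 for neutrophil markers in EMPs. In EMPs Mpo and Elane made 8174 and 1166 FPKM of the neutrophil sum (3621 and 732 in MAC). Ltf, Lcn2 and Ngp went the other way, at 1.38, 16.1 and 18.2 FPKM in EMPs and 73.2, 281 and 693 in MAC. The macrophage sum of MAC was still the highest of all libraries, the others running from 8.93 FPKM in skin to 53.8 in limb MCPs at E14.5. In that limb library Cx3cr1 alone made 53.55 FPKM, against 4.48 in MAC. Csf1r (0 in limb MCPs, 34.1 in MAC), Adgre1 (0.07 and 18.4), C1qa (0 and 0.17) and C1qb (0.17 and 6.82) were higher in MAC. The part of other cells in the results below was not tested, and in sorted bulk samples a change in the mix of cells and a change in RNA per cell cannot be told apart.

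Of the 83 members, 68 matched a RefSeq promoter by symbol, with 74 windows of 300 bases (250 before the gene start and 50 after, build GRCm38.p6). The binding motif of NRF1, a transcription factor known for activating respiratory chain genes, was searched on both strands as GCGCA, any 1 base, then GCGC. It was found in 18 of the 74 windows (24.3%), against 4.60% of all 32851 windows. The YY1 motif AAGATGGC, likewise on both strands, was in 12 windows (16.2%, against 2.75%), the ETS-type motif CCGGAAGT of GABPA in 5 (6.76%, against 3.89%), and TATAAA in 7 (9.46%, against 13.6%). The members' windows had a median GC content of 57.5%, against 52.7% over all windows, and the NRF1 motif is itself rich in G and C, whose part was not tested. Motifs were counted separately and none of them contains another. A match is a description of letters and not of binding. The sequences are 60 bases upstream of a RefSeq start, 5′ to 3′ on the minus strand, with the NRF1 letters in capitals. They are from the 4 members with the highest mean FPKM among the matched members that carry these letters. The windows are chr5:115349041-115349100 for Cox6a1, chr13:74350241-74350300 for Sdha, chr9:50603894-50603953 for Sdhd and chr2:10080433-10080492 for Atp5c1. GENCODE M21 starts these genes elsewhere by some bases, so that the Atp5c1 window lies inside its gene and the Sdha window spans the gene's start.
Cox6a1: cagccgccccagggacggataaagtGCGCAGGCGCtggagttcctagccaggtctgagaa
Sdha: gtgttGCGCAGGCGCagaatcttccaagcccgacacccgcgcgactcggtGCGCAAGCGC
Sdhd: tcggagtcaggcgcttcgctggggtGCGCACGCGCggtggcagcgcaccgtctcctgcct
Atp5c1: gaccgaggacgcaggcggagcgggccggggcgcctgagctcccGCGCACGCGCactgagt

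The members made a smaller share of the FPKM sum in skin than in any of the other 5 libraries. Their summed FPKM was 3785 in EMPs, 2852 in MAC, 3469 in liver MCPs, 3186 in limb MCPs at E11.5, 3791 in limb MCPs at E14.5 and 843 in skin, which is 2.24%, 1.77%, 2.26%, 2.27%, 2.54% and 1.003% of each library's FPKM sum in that order. Leaving Cpa3 out of the sum put skin at 1.20%. Scaled, the sums were 2902, 2708, 2720, 2701, 3114 and 1906 in the same order. In every library at least 1 member was listed at 0, and skin had 10 such members. An FPKM of 10 was reached by 73 members in at least 1 library, by 26 in all 6 and by 55 in all 5 libraries other than skin. The 10 that never reached it were Ndufa5, Ndufa11, Ndufb2, Ndufa4l2, Cox4i2, Cox6a2, Cox7a1, Cox8b, Atp5s and Atp5sl. Skin held the lowest value of 71 members as deposited and of 43 after scaling. These counts were not made over all genes. Skin values as deposited were low for genes of all kinds. Over 2759 genes with 10 FPKM in either library, their median log2 difference from limb MCPs at E14.5 was −1.42.

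**Figure D1:**
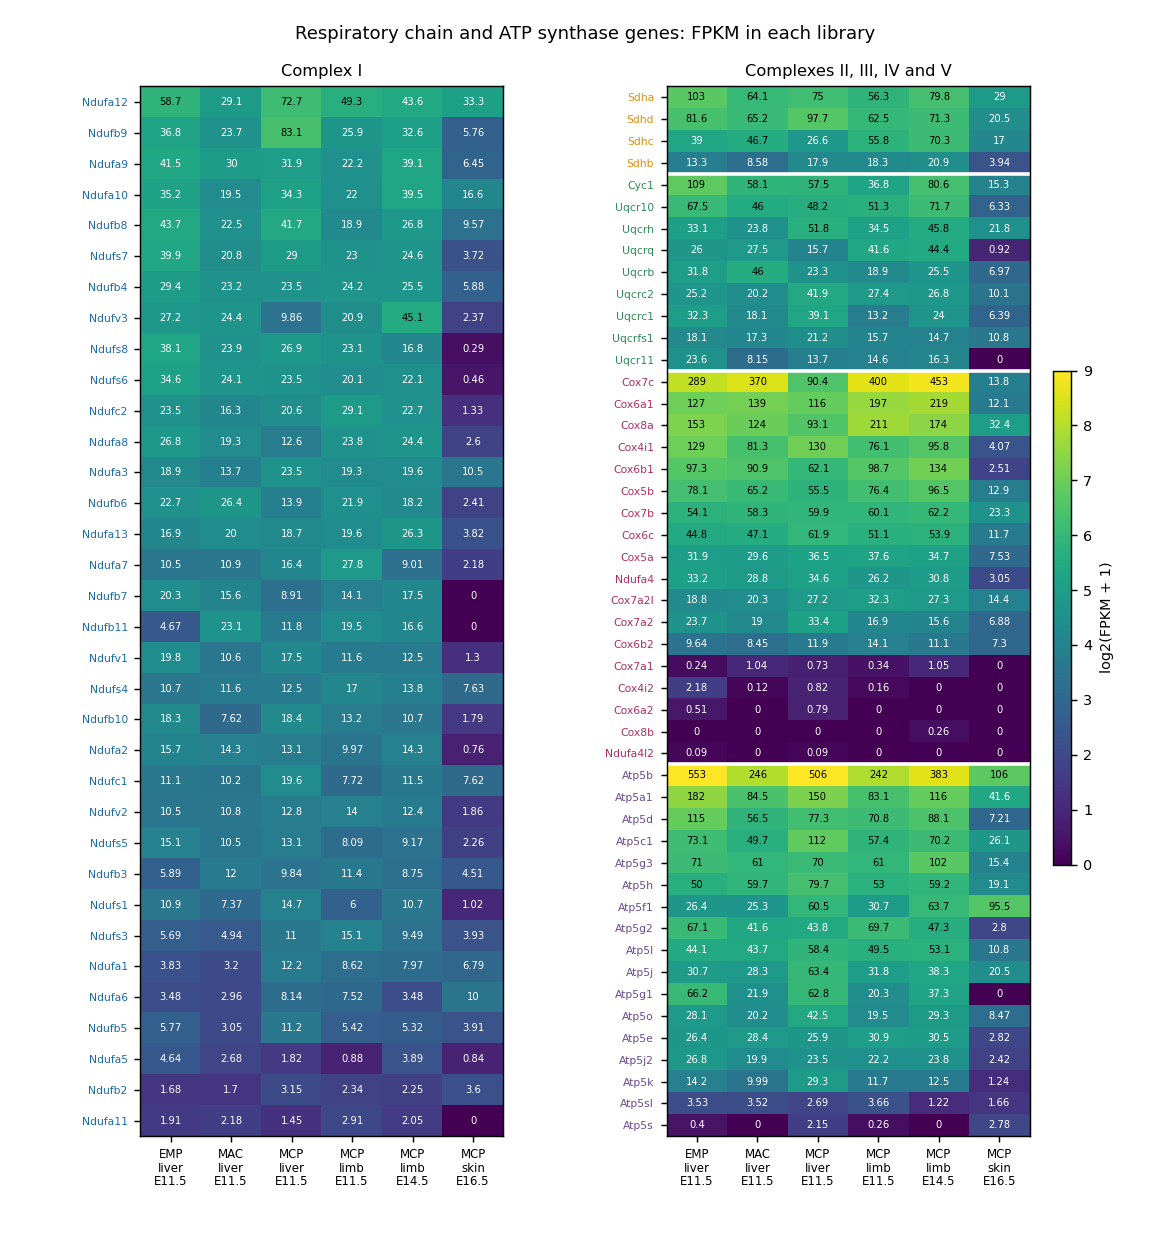
FPKM of the members, 1 of which is not drawn (printed in each cell, colour on a log2(FPKM + 1) scale) in the 6 libraries, with complex I on the left and complexes II, III, IV and V on the right. Atp5b or Cox7c is the brightest cell in each column, and the heart and muscle forms of complex IV are near 0 throughout. Skin holds the lowest value of 71 of all 83 members, a count not made over all genes.

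The highest mean FPKM over the libraries was 339 for Atp5b, the catalytic beta subunit of the synthase, followed by 269.5 for Cox7c, a small structural subunit of complex IV. Cox6a1, Cox8a, Atp5a1, Cox4i1, Cox6b1, Atp5d, Sdha and Sdhd followed, at means of 135 down to 66.4 FPKM. Across the 5 libraries other than skin, 39 of the 73 members stayed within 2-fold of each other after scaling, and the median ratio of highest to lowest was 1.98. The steadiest were Atp5j2 (f subunit of the synthase, ratio 1.11), Ndufb4 of complex I (1.22) and Ndufa4 of complex IV (1.23). Among members that reached 10 FPKM, the widest ratios were those of Ndufb11 (6.13), Cox7c (5.25) and Ndufv3 (4.79). Limb MCPs at E11.5 held the lowest scaled value of 23 of the 73 and limb MCPs at E14.5 of 4, while liver MCPs held the highest of 23. The same counts were not made over all genes.

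The balance between complex IV and the synthase differed from library to library. Complex IV genes summed to 1093 FPKM in EMPs, 1083 in MAC, 815 in liver MCPs, 1298 in limb MCPs at E11.5, 1410 in limb MCPs at E14.5 and 152 in skin. Synthase genes summed to 1378 FPKM in EMPs, 800 in MAC, 1410 in liver MCPs, 858 in limb MCPs at E11.5, 1155 in limb MCPs at E14.5 and 364 in skin. The ratio of complex IV to synthase, which no scaling factor touches, was therefore 0.793 in EMPs, 1.35 in MAC, 0.578 in liver MCPs, 1.51 in limb MCPs at E11.5, 1.22 in limb MCPs at E14.5 and 0.417 in skin. The libraries kept this order without Cox7c, whose ratios ran from 0.379 in skin to 1.05 in limb MCPs at E11.5. They also kept it without Cox7c and Atp5b (0.534 to 1.46, again skin and limb MCPs at E11.5) and without the 6 members that share most of their sequence with other genes (0.428 to 1.39). Sums weigh the most abundant genes, and the ratio of the medians of the 2 complexes gave another order, at 0.738 in EMPs, 1.03 in MAC, 0.588 in liver MCPs, 1.10 in limb MCPs at E11.5, 0.693 in limb MCPs at E14.5 and 0.837 in skin. The complex I to synthase ratio of sums ran from 0.490 in skin to 0.680 in limb MCPs at E11.5, that of complex II from 0.154 in liver MCPs to 0.230 in MAC, and that of complex III from 0.216 in skin to 0.331 in MAC.

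**Figure D2:**
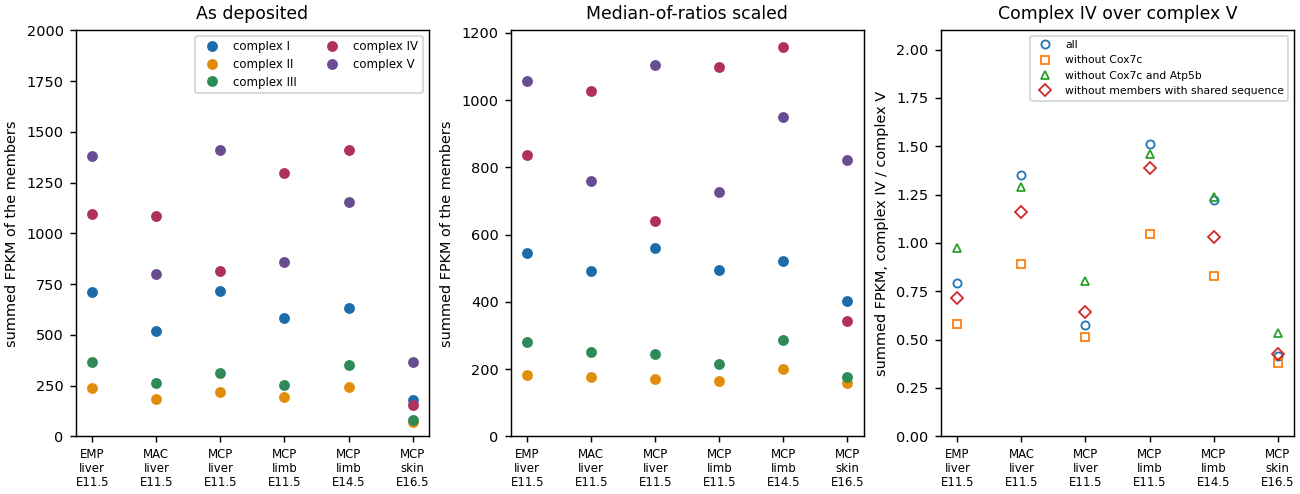
Summed FPKM of the members of each complex in the 6 libraries, as deposited (left) and median-of-ratios scaled (middle), and the ratio of the complex IV sum to the complex V sum (right) with all members and with the named members left out; 1 library per point. Complex V lies above complex IV in EMPs, liver MCPs and skin and below it in MAC and both limb libraries, and the ratio is highest in limb MCPs at E11.5 (1.51) and lowest in skin (0.417).

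A member was called higher or lower where log2(FPKM + 1) differed by at least 1 (2-fold) and at least 1 of the libraries had 10 FPKM, which is a rule of size and not a test. This scale understates the change of low genes. All members called in the 6 comparisons had 95% Poisson intervals at the estimated depth that did not overlap, which cover counting error only. The share over all genes was not computed, so this lends the calls no separate support. The all-gene medians given below show how far scaling moves a whole comparison.

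Liver MCPs were set against EMPs, both from the fetal liver at E11.5. As deposited, 5 of the 71 members that passed the filter were higher (all genes 8.52%) and 4 lower (all genes 15.9%), with a median difference of −0.02 on the log2 scale against −0.18 for all genes. After scaling 4 of 65 were higher (all genes 9.13%) and 3 lower (all genes 14.6%), with a median of −0.03 against −0.15. The member called lower by the widest margin was Cox7c, at 90.4 FPKM in liver MCPs against 289 in EMPs, a ratio of 0.31. Ndufv3, a small accessory subunit of complex I, had 9.86 FPKM in liver MCPs against 27.2 in EMPs, and Ndufb7, another accessory subunit, 8.91 against 20.3. Both were called lower on both scales, and Ndufa8 (12.6 FPKM in liver MCPs, 26.8 in EMPs) only as deposited.

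The members higher in liver MCPs on both scales were Ndufb9 and 2 stalk subunits of the synthase. Ndufb9, an accessory subunit of complex I, had 83.1 FPKM in liver MCPs and 36.8 in EMPs. Atp5f1 (b subunit of the peripheral stalk) had 60.5 FPKM in liver MCPs and 26.4 in EMPs, and Atp5j (F6 subunit of the same stalk) 63.4 in liver MCPs and 30.7 in EMPs. Atp5k was called only after scaling, and Ndufa1 (12.2 FPKM in liver MCPs, 3.83 in EMPs) and Ndufb11 (11.8 and 4.67), which scaling puts under 10 FPKM in both libraries, only as deposited. The synthase genes did not move together: Atp5b had 506 FPKM in liver MCPs and 553 in EMPs, and Atp5g2, a c-ring gene, 43.8 in liver MCPs and 67.1 in EMPs. Annotated exons of other genes cover 21.0% of Atp5f1 and 28.6% of Ndufb9, so reads of those genes cannot be told apart there. Erythroid markers summed to 154 FPKM in liver MCPs and 29.3 in EMPs, and neutrophil markers to 922 in liver MCPs and 9376 in EMPs. Mpo made 878 and 8174 FPKM of the neutrophil sums, while Ngp had 17.7 and 18.2 in the same order. The part of these markers in the members' values was not tested.

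The library labelled MAC was compared with EMPs of the same liver. As deposited, 1 of 68 members was higher (all genes 5.85%) and 7 lower (all genes 10.5%), with a median of −0.34 against −0.29 for all genes. After scaling 2 of 66 were higher (all genes 9.75%) and 2 lower (all genes 4.15%), with a median of −0.05 against 0.07. Ndufb11, an X-linked accessory subunit of complex I, was higher on both scales, at 23.1 FPKM in MAC and 4.67 in EMPs. Ndufb3, also of complex I, had 11.96 FPKM in MAC and 5.89 in EMPs and was called only after scaling. Atp5g1, a c-ring gene, was lower on both scales, at 21.9 FPKM in MAC and 66.2 in EMPs, and so was Uqcr11 of complex III, at 8.15 in MAC and 23.6 in EMPs. Among those lower only as deposited were Atp5b (246 FPKM in MAC, 553 in EMPs), Atp5a1 (84.5 and 182), Atp5d (56.5 and 115) and Ndufb10 (7.62 and 18.3). Cyc1, cytochrome c1, had 58.1 FPKM in MAC and 109 in EMPs and was not called.

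Liver MCPs and the library labelled MAC, came from the same organ and day, and the synthase had the highest median of the 5 complexes on both scales. As deposited, 16 of 72 members were higher in liver MCPs (all genes 17.9%) and 2 lower (all genes 15.7%), with a median of 0.39 against 0.15 for all genes. Of the 16, 7 were among the 15 synthase genes that passed. After scaling 4 of 68 were higher (all genes 10.8%) and 7 lower (all genes 22.4%), with a median of 0.05 against −0.22. The synthase median after scaling was 0.55 and that of complex IV −0.12. Ndufb9 (83.1 FPKM in liver MCPs, 23.7 in MAC), Ndufa12 (72.7 and 29.1), Atp5g1 (62.8 and 21.9) and Atp5k, the e subunit (29.3 and 9.99), were higher on both scales. Atp5c1, the gamma subunit of the central shaft, had 112 FPKM in liver MCPs and 49.7 in MAC and was higher only as deposited. Cox7c, at 90.4 FPKM in liver MCPs and 370 in MAC, was lower by the widest margin, and Ndufv3 (9.86 and 24.4) was also lower on both scales. Ndufb11, Ndufb6, Sdhc, Uqcrb and Uqcrq were lower only after scaling, among them Uqcrb at 23.3 FPKM in liver MCPs and 46.0 in MAC. Erythroid markers summed to 154 FPKM in liver MCPs and 19.7 in MAC, and eosinophil markers to 59.9 in liver MCPs and 7465 in MAC, and their part was not tested.

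At E11.5 limb and liver MCPs differed by the organ they were taken from. As deposited, 5 of 72 members were higher in the limb (all genes 8%) and 9 lower (all genes 14.1%), with a median of −0.27 against −0.16 for all genes. After scaling 5 of 69 were higher (all genes 9.89%) and 6 lower (all genes 10.4%), with a median of −0.16 against −0.03. Complex IV and the synthase had medians of opposite sign, at 0.33 over 13 complex IV genes and −0.73 over 15 synthase genes after scaling. The same 5 members were higher on both scales. Cox7c had 400 FPKM in limb MCPs and 90.4 in liver MCPs, a ratio of 4.43, and Cox8a, another small subunit of complex IV, 211 in limb MCPs and 93.1 in liver MCPs. Uqcrq of complex III (41.6 in limb MCPs, 15.7 in liver MCPs), Sdhc, a membrane anchor of complex II (55.8 and 26.6), and Ndufv3 (20.9 and 9.86) made up the 5.

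Lower in limb than in liver MCPs were genes of complex I, complex III and the synthase. Ndufb9 had 25.9 FPKM in limb MCPs and 83.1 in liver MCPs, Atp5g1 20.3 in limb MCPs and 62.8 in liver MCPs, and Atp5k 11.7 in limb MCPs and 29.3 in liver MCPs. Uqcrc1, a core protein of complex III, had 13.2 FPKM in limb MCPs and 39.1 in liver MCPs, while its partner Uqcrc2 had 27.4 in limb MCPs and 41.9 in liver MCPs and was not called. Ndufs1, the large iron-sulfur core subunit of complex I, had 6.00 FPKM in limb MCPs and 14.7 in liver MCPs. Ndufc1 was also lower on both scales, and Ndufb8, Atp5o and Atp5b (242 FPKM in limb MCPs, 506 in liver MCPs) only as deposited. Erythroid markers, which belong to a mitochondria-rich lineage, summed to 39.0 FPKM in limb MCPs and 154 in liver MCPs, and their part was not tested.

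Few members were called between limb MCPs at E14.5 and at E11.5. As deposited, 3 of 69 members were higher at E14.5 (all genes 8.42%) and 1 lower (all genes 6.23%), with a median of 0.16 against 0.10 for all genes. After scaling 2 of 66 were higher (all genes 7.57%) and 1 lower (all genes 6.61%), with a median of 0.11 against 0.06. The members' differences had an SD of 0.44 as deposited, against 0.91 over all genes, and this was the narrowest of the 6 comparisons (0.56 to 1.34 in the others). Cyc1 had 80.6 FPKM at E14.5 and 36.8 at E11.5, and Ndufv3 45.1 at E14.5 and 20.9 at E11.5, and both were higher on both scales. Atp5f1 (63.7 at E14.5, 30.7 at E11.5) was higher only as deposited. Ndufa7, an accessory subunit of complex I, was the 1 member lower at E14.5, at 9.01 FPKM against 27.8 at E11.5. Neutrophil markers summed to 1.74 FPKM at E14.5 and 443 at E11.5, eosinophil markers to 0.03 at E14.5 and 74.4 at E11.5, erythroid markers to 4.60 at E14.5 and 39.0 at E11.5, and connective tissue markers to 49.8 at E14.5 and 0.42 at E11.5. Muscle markers stayed at or below 0.64 FPKM in every library.

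**Figure D3:**
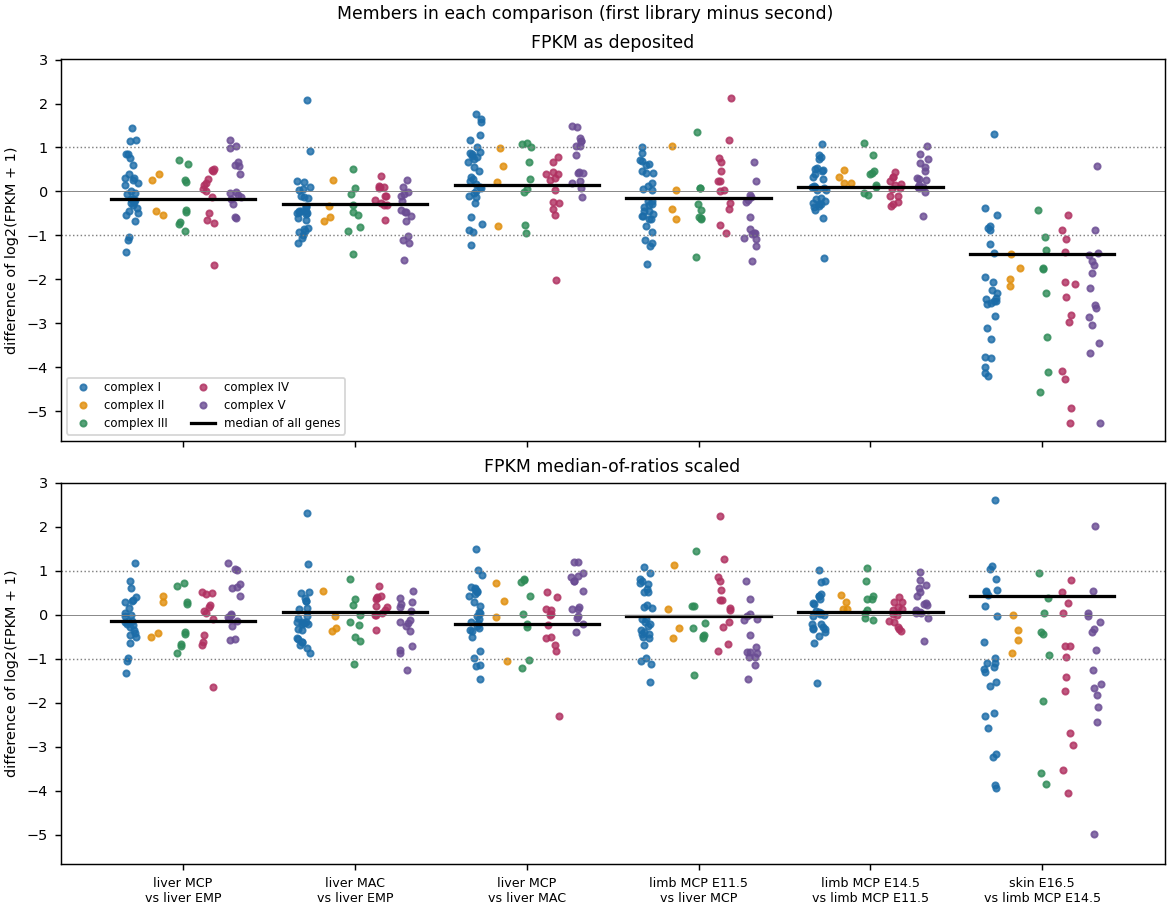
Differences of log2(FPKM + 1) for every member that passed the filter, first-named library minus second-named, as deposited (top) and median-of-ratios scaled (bottom), coloured by complex; black bars are the medians of all genes that passed and dotted lines the 2-fold limits. Members lie around the all-gene median in the first 5 comparisons and below it in skin against limb MCPs at E14.5, where 47 of 67 scaled differences are below 0.

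Cells from the skin at E16.5 were set against limb MCPs at E14.5, a comparison in which age, site and library quality cannot be told apart. As deposited, 1 of 67 members was higher in skin (all genes 5.65%) and 56 lower (all genes 62.7%), with a median of −2.23 against −1.42 for all genes. After scaling 4 of 67 were higher (all genes 33.4%) and 30 lower (all genes 20.4%), with a median of −0.88 against 0.43. On both scales the members' median was below that of all genes. The scaled medians were −1.10 for complex I, −0.46 for complex II, −0.42 for complex III, −0.96 for complex IV and −0.81 for the synthase, and none of the 4 complex II genes was called after scaling.

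The fall was uneven within each complex. Cox6b1, a subunit at the dimer interface of complex IV, had 2.51 FPKM in skin and 134 in limb MCPs at E14.5, Cox4i1 4.07 in skin and 95.8 in limb MCPs, and Cox7c 13.8 in skin and 453 in limb MCPs. Cox7b, in the same complex, had 23.3 FPKM in skin and 62.2 in limb MCPs at E14.5. In the synthase, Atp5b had 106 FPKM in skin and 383 in limb MCPs at E14.5, and Atp5a1, the alpha subunit, 41.6 in skin and 116 in limb MCPs, which scaled to 239 against 314 for Atp5b and 94.1 against 95.2 for Atp5a1. Atp5d, the delta subunit, had 7.21 FPKM in skin and 88.1 in limb MCPs. Subunits that stand in fixed numbers in the same enzyme thus kept different shares of their limb level.

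Atp5g1, Ndufb7, Ndufb11 and Uqcr11 were listed at 0 in skin, against 37.3, 17.5, 16.6 and 16.3 FPKM in limb MCPs at E14.5 in that order. In skin, 3 fragments would be worth 0.582, 0.556, 0.375 and 0.794 FPKM for them in the same order. Skin listed 26 of the 1660 genes with 10 FPKM or more in each of the other 5 libraries at 0, and among the 55 members of that kind the 1 listed at 0 was Atp5g1. The members called higher were Ndufa6, an accessory subunit of complex I (10.02 FPKM in skin, 3.48 in limb MCPs at E14.5), on both scales, and Atp5f1 (95.5 in skin, 63.7 in limb MCPs), Ndufa1 (6.79 and 7.97) and Ndufa12 (33.3 and 43.6) only after scaling. Ndufa6 passed the filter only through its skin value, and Ndufa1 only through its scaled skin value (15.3, against 6.55 in limb MCPs). Atp5f1 was the second most abundant member in skin, after Atp5b.

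**Figure D4:**
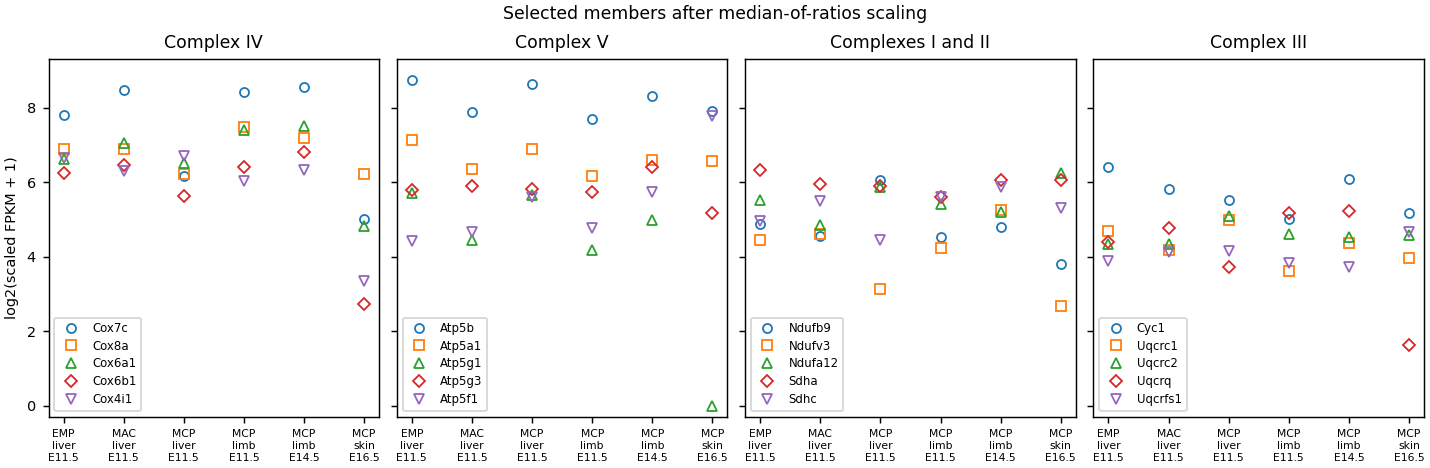
Scaled levels, as log2(scaled FPKM + 1), of 5 members in each of 4 panels by complex, in the 6 libraries. Cox7c drops in liver MCPs and skin, Atp5g1 is high in EMPs and liver MCPs and listed at 0 in skin, and Atp5f1 is highest in skin.

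Transcript GC content moved with the differences in skin. Over the 67 members, the scaled difference of skin against limb MCPs at E14.5 had a Spearman correlation of −0.45 with GC content, beside −0.40 over 3009 genes of all kinds, which describes genes of the same pair of libraries. Members under 50% GC had a median difference of −0.25 (26 members), those from 50% to 55% −0.51 (20 members) and those of 55% or more −2.08 (21 members). Other genes in the same ranges had medians of 0.86, −0.06 and −0.83, each above that of the members. Members are also short, with a median transcript of 727 bases against 2580 for all genes. In skin against limb MCPs, members under 600 bases had a median of −1.26 (24 members), beside −0.49 for 88 other genes of that length, those from 600 to 1000 bases −1.36 (20 members), beside −0.33 for 239 others, and those of 1000 bases or more −0.02 (23 members), beside 0.54 for 2614 others. The part of base composition and length in the skin values was not tested. GC content also moved with liver MCPs against EMPs (−0.35 over 65 members, −0.44 over 2651 genes) and MAC against EMPs (−0.47 over 66 members, −0.24 over 2670 genes), while the correlation was 0.04 over 66 members between the 2 limb libraries.

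**Figure D5:**
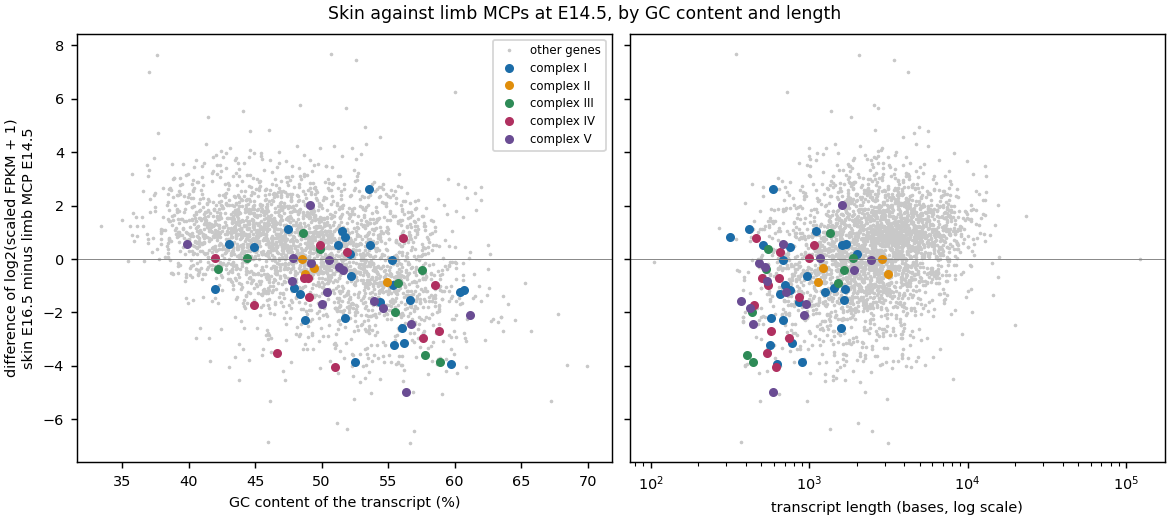
Scaled difference of skin at E16.5 minus limb MCPs at E14.5 on log2(scaled FPKM + 1), against GC content (left) and length on a log axis (right) of the transcript, for members coloured by complex and other genes in grey. Members of 55% GC or more lie lowest, with a median of −2.08 against −0.83 for the other genes in that range.

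The core of each complex can be followed gene by gene. Among the nuclear core subunits of complex I, Ndufs8, a ferredoxin-like iron-sulfur subunit, had 38.1 FPKM in EMPs, 23.9 in MAC, 26.9 in liver MCPs, 23.1 in limb MCPs at E11.5, 16.8 in limb MCPs at E14.5 and 0.29 in skin. The skin value corresponds to about 2 fragments. Ndufs1, Ndufs3, Ndufs7, Ndufv1 and Ndufv2 ranged from 4.94 (Ndufs3 in MAC) to 39.9 FPKM (Ndufs7 in EMPs) outside skin, and from 1.02 (Ndufs1) to 3.93 (Ndufs3) in skin.

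In complex II, the flavoprotein gene Sdha had 103 FPKM in EMPs, 64.1 in MAC, 75.0 in liver MCPs, 56.3 in limb MCPs at E11.5, 79.8 in limb MCPs at E14.5 and 29.0 in skin. Sdhb, the iron-sulfur subunit that binds it, was lower throughout, at 13.3, 8.58, 17.9, 18.3, 20.9 and 3.94 FPKM in the same order. The anchors Sdhc and Sdhd lay between 17.0 and 97.7 FPKM in all 6 libraries. In complex III, Cyc1 had 109 FPKM in EMPs, 58.1 in MAC, 57.5 in liver MCPs, 36.8 in limb MCPs at E11.5, 80.6 in limb MCPs at E14.5 and 15.3 in skin, and Uqcrfs1, the Rieske iron-sulfur protein, 18.1, 17.3, 21.2, 15.7, 14.7 and 10.8 in the same order. Cyc1 was the more variable of these, and Uqcrfs1 was within 2-fold across all 6 libraries as deposited.

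Among the paralogs of complex IV, the widely expressed forms carried nearly all of the signal. Cox4i1, the common form of subunit 4, had 129 FPKM in EMPs, 81.3 in MAC, 130 in liver MCPs, 76.1 in limb MCPs at E11.5, 95.8 in limb MCPs at E14.5 and 4.07 in skin, whereas Cox4i2, known from lung, reached 2.18 in EMPs and at most 0.82 elsewhere. Cox6a1 had 127, 139, 116, 197, 219 and 12.1 FPKM in the same order, and its heart and muscle counterpart Cox6a2 reached at most 0.79, in liver MCPs. The heart and muscle forms Cox7a1 and Cox8b reached at most 1.05 and 0.26 FPKM, both in limb MCPs at E14.5, beside 15.6 FPKM for Cox7a2 and 174 for Cox8a in that library. Cox6b2, known as a testis form, had 9.64 FPKM in EMPs, 8.45 in MAC, 11.9 in liver MCPs, 14.1 in limb MCPs at E11.5, 11.1 in limb MCPs at E14.5 and 7.30 in skin, so that in skin it was above Cox6b1 (2.51), while outside skin Cox6b1 was at 62.1 to 134 FPKM. Cox7a2l, a relative of Cox7a2 known for binding complexes III and IV together, had 14.4 FPKM in skin and 18.8 to 32.3 elsewhere. Ndufa4 had 3.05 FPKM in skin and 26.2 to 34.6 elsewhere, and Ndufa4l2, known to respond to low oxygen, was at or below 0.09 in every library.

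The synthase c-ring is made from 3 genes, Atp5g1, Atp5g2 and Atp5g3, that encode the same mature protein behind different import signals. The last 60 coding bases are shown, 5′ to 3′ from GENCODE M21, because they show how close these genes are where reads must be assigned; capitals mark the 17 positions at which the 3 are not all identical. They are coding positions 352 to 411 of Atp5g1 (chromosome 11), 382 to 441 of Atp5g2 (chromosome 15) and 367 to 426 of Atp5g3 (chromosome 2).
Atp5g1: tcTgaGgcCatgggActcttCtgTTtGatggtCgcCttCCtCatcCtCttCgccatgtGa
Atp5g2: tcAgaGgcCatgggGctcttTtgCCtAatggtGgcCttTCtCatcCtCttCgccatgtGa
Atp5g3: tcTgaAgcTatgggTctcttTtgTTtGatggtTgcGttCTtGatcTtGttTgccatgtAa
Over the last 228 coding bases Atp5g1 and Atp5g2 were 85.1% identical with a longest shared run of 21 bases, Atp5g1 and Atp5g3 79.8% (11 bases), and Atp5g2 and Atp5g3 78.5% (8 bases). No shared run came near the 50-base words used to look for ambiguous sequence, but other annotated genes shared 66.0% of the words of Atp5g1 and 100% of those of Atp5g2, so the levels of both are uncertain. Atp5g1 had 66.2 FPKM in EMPs, 21.9 in MAC, 62.8 in liver MCPs, 20.3 in limb MCPs at E11.5, 37.3 in limb MCPs at E14.5 and 0 in skin. Atp5g2 had 67.1, 41.6, 43.8, 69.7, 47.3 and 2.80 FPKM in the same order, and Atp5g3 71.0, 61.0, 70.0, 61.0, 102 and 15.4. Atp5g3 was thus the highest of the 3 in EMPs, MAC, liver MCPs, limb MCPs at E14.5 and skin, and Atp5g2 in limb MCPs at E11.5. Cox7c (53.0%), Atp5o (63.0%), Atp5h (66.6%) and Atp5l (68.5%) also shared over 50% of their words with other genes.

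Other genes of energy metabolism were followed in lists drawn from general knowledge, and the counts here are after scaling. Of 25 genes of the tricarboxylic acid cycle and pyruvate dehydrogenase, which supply the chain with electrons, 13 passed in each comparison and none was called outside skin, with medians of −0.09 in liver MCPs against EMPs, −0.27 in MAC against EMPs, 0.17 in liver MCPs against MAC, −0.17 in limb against liver MCPs and 0.39 between the limb libraries (E14.5 over E11.5). Over all genes, 4.15% to 22.4% were called in each direction in those comparisons. In skin against limb MCPs at E14.5 the list had 8 of 13 lower (all genes 20.4%), none higher (all genes 33.4%) and a median of −1.25. Ogdh, a subunit of 2-oxoglutarate dehydrogenase, had 2.04 FPKM in skin and 27.9 in limb MCPs at E14.5. Glycolysis genes had a median of −0.86 in liver MCPs against MAC, with 6 of 13 lower (all genes 22.4%) and none higher (all genes 10.8%). In limb against liver MCPs their median was 0.71, with 1 of 11 higher (all genes 9.89%) and none lower (all genes 10.4%). In skin against limb MCPs at E14.5 10 of 13 glycolysis genes were lower (all genes 20.4%), with a median of −1.62. Pfkl, a phosphofructokinase gene, had 0.59 FPKM in skin and 13.3 in limb MCPs. The members' scaled medians were 0.05, −0.16 and −0.88 in these 3 comparisons in the same order.

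Genes of protein synthesis and turnover gave other patterns. Cytosolic ribosomal protein genes had scaled medians of 0.51 in liver MCPs against EMPs (21 of 75 higher, 2 lower), 0.86 in liver MCPs against MAC (29 of 75 higher, 1 lower) and −0.46 in skin against limb MCPs at E14.5 (9 of 75 higher, 29 lower). Over all genes, the shares higher and lower were 9.13% and 14.6% in the first comparison and 10.8% and 22.4% in the second. In skin against limb MCPs they were 33.4% and 20.4%. Mitochondrial ribosomal protein genes, whose products make the mitochondrially encoded subunits, had medians of 0.16 over 17, 0.21 over 16 and −0.22 over 11 of 77 genes in the same comparisons, and proteasome subunit genes 0.32 over 34, 0.48 over 32 and −0.72 over 29 of 40. The respiratory chain and synthase genes, at −0.03, 0.05 and −0.88, had the lowest median of these 4 lists in each of these comparisons, but not in the other 3. Outside these 4 lists, glycolysis genes lay lower in the same comparisons, at −0.69, −0.86 and −1.62. The tricarboxylic acid cycle list was at −0.09, 0.17 and −1.25. In MAC against EMPs the members' median was −0.05, beside −0.22 for cytosolic and −0.33 for mitochondrial ribosomal protein genes and −0.21 for proteasome genes. In limb against liver MCPs it was −0.16, beside −0.53, −0.33 and −0.50 in the same order, so the members had the highest of the 4 medians in both. Between the limb libraries (E14.5 over E11.5) it was 0.11, beside −0.16, −0.07 and 0.12.

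Few genes that build or regulate the chain were abundant enough to compare. After scaling 4 or 5 of 45 assembly factors passed, and Cox17, a copper chaperone for complex IV, was higher in liver MCPs, at 35.0 FPKM against 15.1 in EMPs. In skin against limb MCPs at E14.5, 3 of 5 were higher (all genes 33.4%) and none lower (all genes 20.4%). The median of the list was 1.12, against 0.43 for all genes. Among the 3 was Tmem126b, a complex I assembly factor, at 4.82 FPKM in skin and 2.73 in limb MCPs. Another was Cox16, an assembly factor of complex IV, at 8.85 in skin and 7.39 in limb MCPs. Both were under 10 FPKM as deposited and passed only through the scaled skin value. As deposited the list turned round, with 2 that passed, none higher, 1 lower and a median of −1.26. Oxa1l, an insertase of the inner membrane, was lower in limb MCPs at E14.5, at 9.82 FPKM against 25.8 at E11.5. Of 19 regulators 3 to 5 passed, and Myc, which among many targets activates mitochondrial genes, was lower in MAC (33.1 FPKM) than in EMPs (104) and lower in skin (4.29) than in limb MCPs at E14.5 (33.9). The regulators had 1 higher (all genes 33.4%) and 1 lower (all genes 20.4%) of 5 in that comparison, with a median of 0.06. Hif1a, which responds to low oxygen, was the higher one after scaling, at 17.4 FPKM in skin and 13.1 in limb MCPs. Of 14 carriers and channels 11 or 12 passed, and in skin 1 was higher (all genes 33.4%) and 1 lower (all genes 20.4%). Vdac2, an outer membrane channel, had 4.31 FPKM in skin against 33.6 in limb MCPs at E14.5.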

How the data were processed

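The authors deposited 1 FPKM table; the submitters' processing notes name Bowtie2, RSEM and the build mm10 (GRCm38), while versions, annotation and strand settings were not given in the sources used here. Of 17913 genes listed, 4 with repeated names were dropped. The members and gene lists were chosen with earlier results of these data known. FPKM were used as deposited and after median-of-ratios scaling, on log2(FPKM + 1), with Python 3.11.15, pandas 2.3.3, numpy 2.4.6, SciPy 1.17.1 and matplotlib 3.10.9. FPKM are not counts and each group has 1 library, so no count model or test was run. Genes are named by symbol. Named members are the 4 largest rises and falls of each comparison after scaling, the 10 with the highest mean, paralog groups, core subunits, and those listed at 0 in 1 library while reaching 10 FPKM in another; other members named were chosen after their values were seen. Of other lists, at most the 2 genes with the largest difference per comparison are named.

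Depth was estimated from 943 genes, whose low values lay within 0.2 of a whole number of fragments in 75.7% to 81.2% of cases; the estimate is approximate, and Poisson intervals (95%, and 3 fragments where a gene is listed at 0) cover counting error only. Transcript length, GC content, positions and words of 50 bases shared between genes were computed from GENCODE M21 for 83 of 83 members and 17283 genes (96.5%); how the authors' RSEM run divided shared reads is not stated in the labels. Alternatives were other scalings, pseudocounts, filters and fold limits. Values of some single genes are not reported here.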

Additional observations from a re-analysis of the deposited data

How the results depend on the processing

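Of 189 recomputed values 131 stayed within 1.5 times the count, or near the median, given for FPKM as deposited, and 58 moved further. For a median, near means inside an interval set by the spread of the members, which are not replicates. Counts were given no rule for a reversal. In liver MCPs against MAC the calls went from 16 higher and 2 lower as deposited to 4 higher and 7 lower after scaling. The median of liver MCPs against EMPs lay on either side of 0, from −0.06 to 0.12. Leaving the skin library out of the scaling and leaving out the members with shared sequence were chosen after seeing the data. No paired analysis was possible because each group held 1 library, and leaving out a library would empty a group. Fewer features pass a stricter limit by construction, and for the other changes the cause was not tested.

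For liver MCPs against EMPs, 2 members were lower with equal sums (TPM) and 2 with erythroid genes also left out. There were 2 higher and 2 lower with a pseudocount of 5, 3 higher and 1 lower with a filter of 30 FPKM, and 0 higher and 0 lower at 4-fold. For MAC against EMPs, median-of-ratios scaling gave 2 higher, 2 lower and a median of −0.0481, and without the skin library 2, 2 and −0.0125. A pseudocount of 0.1 gave 2 higher, a pseudocount of 5 gave 4 lower, the 30 FPKM filter 0 higher and a median of −0.50, and the 4-fold limit 0 lower. For liver MCPs against MAC, scaling gave 4 higher, 7 lower and a median of 0.0478, and without the skin library 6, 7 and 0.14. A pseudocount of 5 gave 10 higher and 1 lower, the 30 FPKM filter 1 lower, the 4-fold limit 0 higher and 1 lower, and leaving out members with shared sequence 1 lower.

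For limb against liver MCPs, a pseudocount of 5 gave 3 higher and 5 lower, the 30 FPKM filter a median of −0.53, and the 4-fold limit 1 higher and 0 lower. For the limb at E14.5 against E11.5, equal sums gave 1 higher and a median of 0.0652, the same without erythroid genes 1 and 0.0647, a pseudocount of 5 gave 1 higher, no filter 2 lower, the 30 FPKM filter 0 lower, and the 4-fold limit 0 higher and 0 lower. For skin against limb MCPs at E14.5, scaling gave 4 higher, 30 lower and a median of −0.88, equal sums gave 2 higher and −1.50, and equal sums without erythroid genes 2 higher and −1.50. A pseudocount of 5 gave 0 higher and −1.66, no filter 2 higher, the 30 FPKM filter 0 higher and 31 lower, and the 4-fold limit 0 higher. The members' median stayed below 0 in skin under each of these, while its all-gene median changed sign with scaling (−1.42 as deposited, 0.43 scaled).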
